A study of Mus musculus with 12 samples.

Results

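The 10 genes that encode the H3K79 methyltransferase DOT1L, its binding partners and the super elongation complex were followed through the H3K79me2 peak lists of CD8 T cells, to ask whether the genes of the inhibited enzyme and its partners keep the mark. The members were taken by name as Dot1l, Mllt6, Mllt10, Mllt1, Mllt3, Aff1, Aff3, Aff4, Ell and Ell2, which are 10 of 21887 nuclear protein-coding genes. ChIP-seq, the sequencing of DNA immunoprecipitated with the modified histone, was done on cells from male mice. The strain is written CreERT2;DOT1L-flox;OT-I with the genotype wt;wt;het, so that, by the labels, all groups lacked Cre and the floxed Dot1l allele and carried OT-I, a transgenic T cell receptor, on 1 allele. Cells were activated through CD3 and CD28 and kept until day 8 in 0.1% DMSO (the vehicle), in EPZ-5676 or in SGC-0946, both inhibitors of DOT1L that compete with its methyl donor, renewed every 2 days. The dose of each inhibitor is labelled 10 mM, and that unit is doubtful because such compounds are used at micromolar doses. The 12 libraries comprised 2 immunoprecipitates and 2 inputs for each of the 3 treatments, and the values come from 1 deposited list of broad peaks per treatment, named here DMSO, EPZ and SGC. Spread between replicates was therefore not measured in any value, no test could be made, and the read depth behind the lists is unknown.

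DOT1L is the enzyme known to methylate lysine 79 of histone H3, and H3K79me2 typically lies over the 5′ part of transcribed genes. AF10 and AF17 (encoded by Mllt10 and Mllt6) bind DOT1L, and AF10 is known to promote dimethylation. ENL and AF9 (Mllt1 and Mllt3) read acylated histones through a YEATS domain and bind either DOT1L or an AFF protein. AFF proteins are the scaffolds of the super elongation complex, which brings together the ELL elongation factors and the kinase P-TEFb, whose action releases paused RNA polymerase II. Several of these genes are fused to Kmt2a in leukaemia, where DOT1L inhibitors were first tried.

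The labelled cell type was checked against genes fixed for it. All 6 CD8 T cell genes (Cd8a, Cd8b1, Cd3d, Cd3e, Cd3g and Lck) had a DMSO peak. Lck was highest at a fold enrichment of 11.6 and Cd3e lowest at 6.08. Of 11 genes of other cells 10 had none, among them Cd4 and Csf1r. The exception, Cd79a, was touched over 0.254 kb by a peak of 7.06-fold, above the values of Cd3e and Cd8b1 (6.89).

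The letters before start sites of 5 member genes are given as examples. A DMSO peak lay in the first 500 bases after each of these starts, except at Ell2 and at the Mllt10 distal start. Other listed starts with such a peak, among them those of Aff4 and Mllt1, are not shown. The letters are RefSeq sequence on GRCm38.p6 (the same assembly as mm10), written 5′ to 3′ along the gene's strand, and capitals mark CpG dinucleotides. Where the listed start lay inside the gene interval by a short distance, only the bases outside the interval are shown.
Dot1l, chr10:80754953-80755100, plus strand: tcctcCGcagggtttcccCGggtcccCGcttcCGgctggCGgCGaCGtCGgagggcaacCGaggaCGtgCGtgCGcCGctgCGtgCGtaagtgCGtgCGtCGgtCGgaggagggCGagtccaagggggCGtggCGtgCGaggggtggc
Ell, chr8:70539425-70539674, plus strand: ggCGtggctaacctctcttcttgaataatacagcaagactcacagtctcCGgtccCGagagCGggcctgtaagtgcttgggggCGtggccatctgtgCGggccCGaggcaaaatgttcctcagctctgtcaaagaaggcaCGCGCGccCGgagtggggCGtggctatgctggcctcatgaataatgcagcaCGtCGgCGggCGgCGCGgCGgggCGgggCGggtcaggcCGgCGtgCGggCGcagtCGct
Mllt10 distal start, chr2:18054987-18055159, plus strand: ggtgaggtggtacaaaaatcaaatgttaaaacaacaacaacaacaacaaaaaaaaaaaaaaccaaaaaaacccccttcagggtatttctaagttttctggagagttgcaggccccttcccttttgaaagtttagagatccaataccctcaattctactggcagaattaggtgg
Mllt10 internal start, chr2:18064335-18064584, plus strand: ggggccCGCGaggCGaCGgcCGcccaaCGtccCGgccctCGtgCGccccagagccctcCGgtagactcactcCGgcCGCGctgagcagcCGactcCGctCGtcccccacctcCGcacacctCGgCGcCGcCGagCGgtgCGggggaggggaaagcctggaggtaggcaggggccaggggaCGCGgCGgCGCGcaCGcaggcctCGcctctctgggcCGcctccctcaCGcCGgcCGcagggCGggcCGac
Aff1 internal start, chr5:103753912-103754161, plus strand: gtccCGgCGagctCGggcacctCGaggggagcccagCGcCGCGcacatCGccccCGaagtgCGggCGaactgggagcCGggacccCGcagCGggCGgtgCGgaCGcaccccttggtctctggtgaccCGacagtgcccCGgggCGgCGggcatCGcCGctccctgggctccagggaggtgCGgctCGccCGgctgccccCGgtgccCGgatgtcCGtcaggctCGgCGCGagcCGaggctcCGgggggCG
Ell2, chr13:75707234-75707483, plus strand: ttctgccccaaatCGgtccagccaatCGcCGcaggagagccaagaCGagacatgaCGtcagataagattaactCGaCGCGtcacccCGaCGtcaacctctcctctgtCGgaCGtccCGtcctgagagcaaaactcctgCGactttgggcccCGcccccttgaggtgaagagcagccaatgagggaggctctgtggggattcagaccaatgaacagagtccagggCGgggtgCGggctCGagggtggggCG
The 300 bases from 250 before to 50 after a start held a median of 13 CpG over 17492 protein-coding genes (interquartile range 3.75 to 24). Dot1l had 49 CpG in that window, Ell 29, the Aff1 internal start 40 and Ell2 23. Mllt10 had 7 at its distal start and 43 at its internal start. The GC box GGGCGG, searched on both strands, was found in 46.3% of all these windows. It occurred 2 times at Dot1l, 4 times at Ell, 3 times at the Aff1 internal start, 3 times at Ell2, 2 times at the Mllt10 internal start and 0 times at the distal one.

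Under vehicle, an H3K79me2 peak was called in 9 of the 10 genes and not in Ell2. With EPZ-5676 a peak was called in 3 of those 9, Dot1l, Mllt6 and Ell. A gene counted as marked if a peak shared at least 1 base with its interval, from its lower to its higher coordinate. By that rule 34.6% of all protein-coding genes had a DMSO peak, and of the genes with a DMSO peak 46.1% had an EPZ peak. The member share, 3 of 9 (33.3%), was below that background, but with weak peaks left out it was above it. At a minimum −log10 q of 3 the count was 3 of 4 against 44.1%, and at a minimum of 5 it was 2 of 3 against 44.1%, so no direction can be read from it. With SGC-0946 a peak was called in 0 of the 10 genes, against 0.41% of all DMSO-marked genes, so that a count of 0 is near the background. The members held 40 DMSO peaks and 5 EPZ peaks. Fold enrichment is the authors' ratio over background, averaged over a peak, and is used here only within its own list.

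At the median, the marked members were longer genes than marked genes as a whole, with more peak bases at a lower fold enrichment. Their lengths ran from 22.3 kb (Mllt6) to 454.8 kb (Aff3), with a median of 71.2 kb against 23.4 kb for all DMSO-marked genes. DMSO peaks covered a median of 11.2 kb of a member against 4.10 kb, in a median of 4 peaks against 1. The highest DMSO fold enrichment of a member had a median of 3.57, against 4.47 over all 7563 marked genes (interquartile range 3.53 to 5.99). As a share of the gene interval, DMSO peaks covered a median of 25.3% against 23.7%. These medians describe 9 named genes and were not tested.

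**Figure D1:**
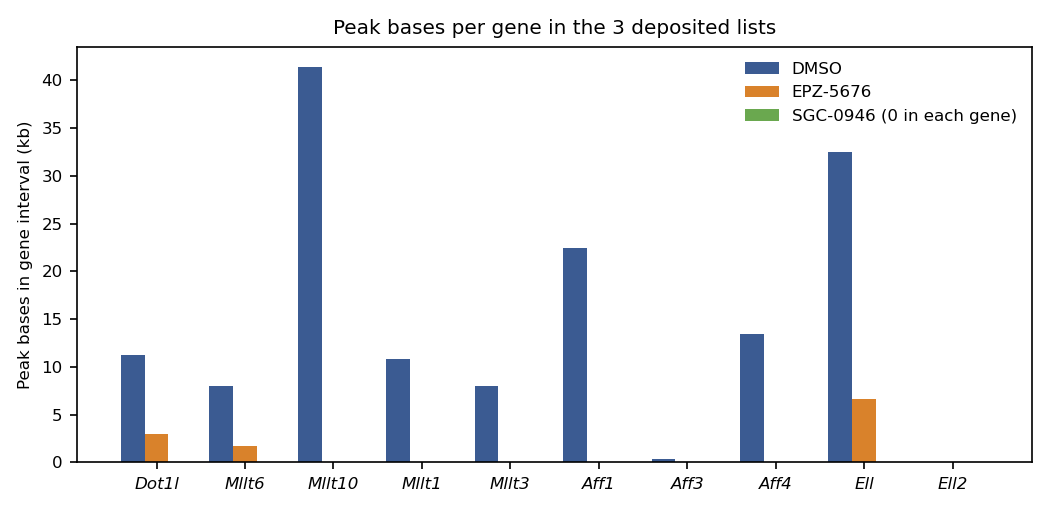
Peak bases within each of the 10 gene intervals (kb) in the DMSO, EPZ-5676 and SGC-0946 lists, 1 pooled list per treatment, so no error bars. Mllt10 has the most DMSO bases (41.4 kb) and no EPZ bases, Ell has the most EPZ bases (6.69 kb), and no gene has SGC bases.

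Dot1l itself kept a short 5′ remnant of its mark under EPZ-5676. The gene lies on the plus strand of chromosome 10 from 80755101 to 80795461. Its own DMSO peak ran from 80755625 to 80766022, a width of 10.4 kb at a fold enrichment of 5.09, and began 422 bases after the listed start site. The EPZ list had a 0.992 kb peak of 4.45-fold from 80755660 to 80756651 and a 1.96 kb peak of 2.79-fold from 80758066 to 80760023. Both EPZ peaks lay inside that DMSO peak, of which they covered 9.54% and 18.8%. The first stood in the top 31.6% of the EPZ list by fold enrichment and the weaker one in the top 97.4%, near the bottom of the list.

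The 3′ end of Dot1l lay under a peak that mostly covered its neighbours. A DMSO peak of 7.89-fold, 8.41 kb wide, covered Plekhj1 and Sf3a2, a splicing factor gene, and reached only 0.844 kb into Dot1l. The EPZ peak within it, 3.76 kb wide at 4.63-fold, stopped short of Dot1l. EPZ peaks covered 75.8% of the DMSO bases in Plekhj1 and 40.3% of those in Sf3a2, against 26.2% in Dot1l. The next gene on the other side, Ap3d1, 12.8 kb away, also had a DMSO and an EPZ peak.

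**Figure D2:**
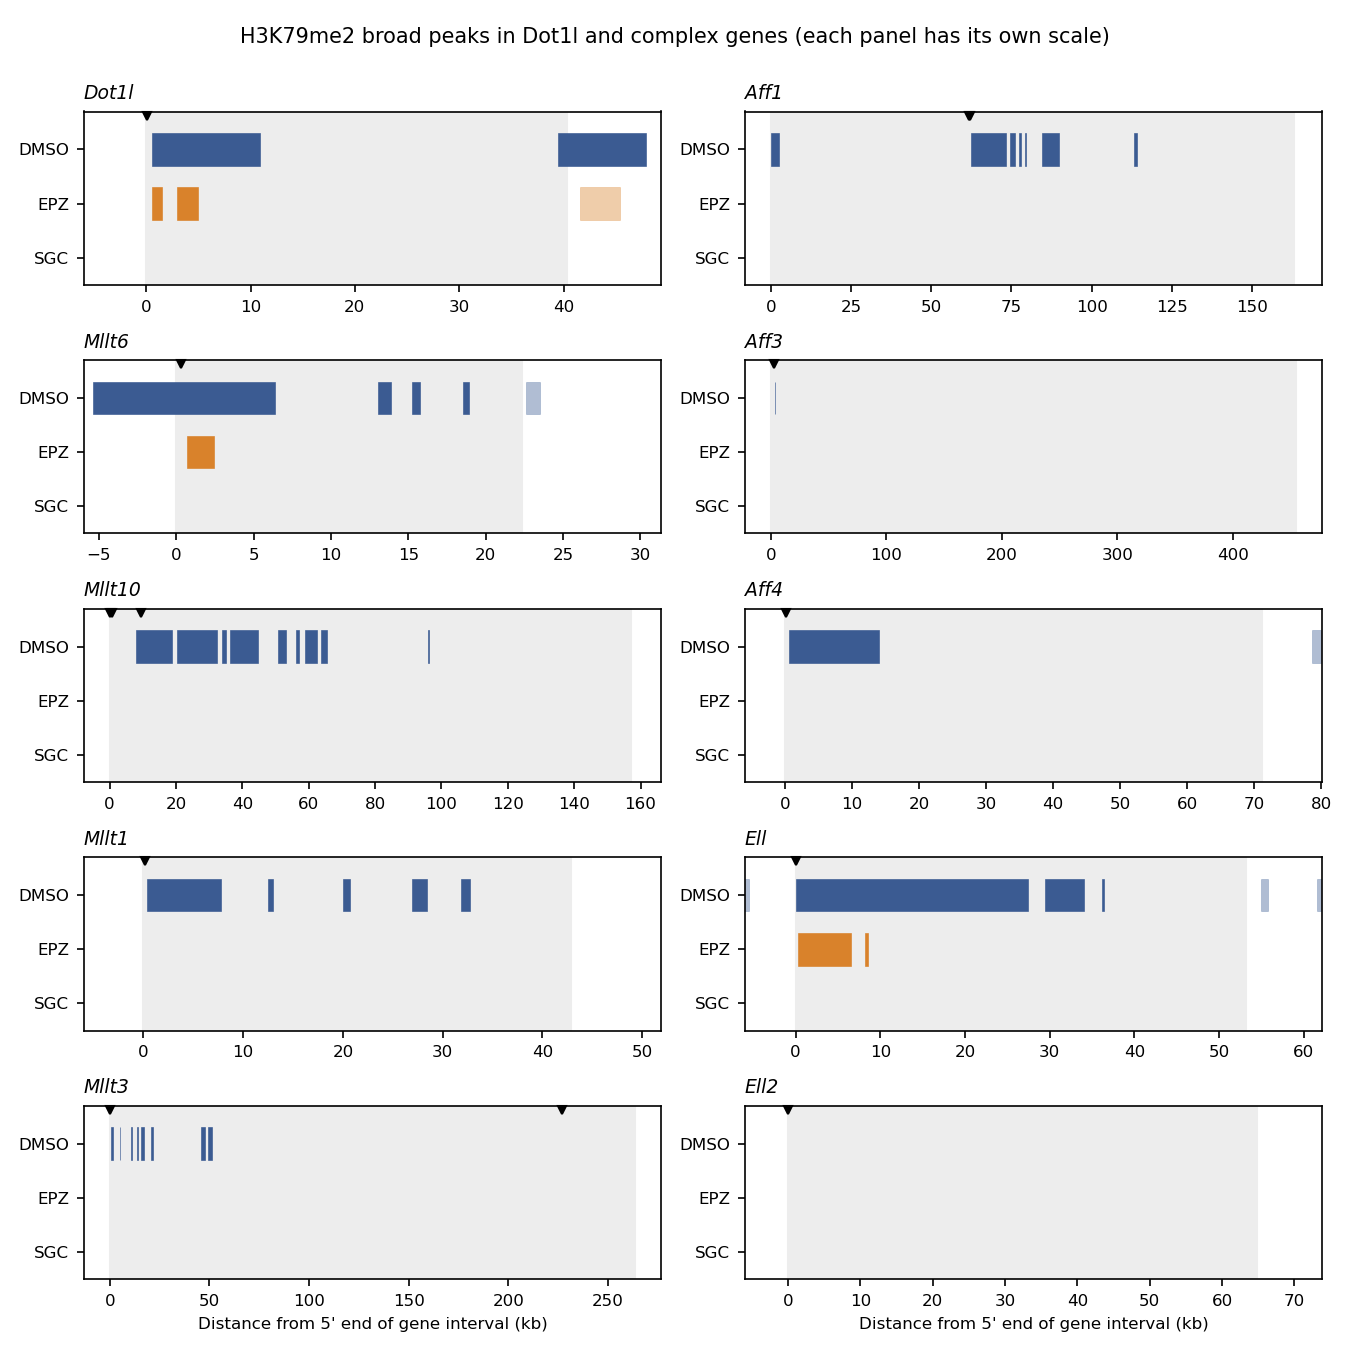
Peaks of the DMSO (blue), EPZ (orange) and SGC (green, none present) lists along each gene, as distance in kb from the 5′ end of the gene interval (grey), pale where the peak lies wholly outside the gene and triangles at listed start sites. Each panel has its own scale. The EPZ peaks of Dot1l, Mllt6 and Ell lie within the first 8.57 kb of the gene interval. The DMSO peaks of Mllt10 and Aff1 lie across or after an internal start site, except for the Aff1 peak at the far 5′ end.

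The called DMSO peaks of the AF10 family genes differed in height and width, and an EPZ peak was called only in Mllt6. Mllt6, on the plus strand of chromosome 11 from 97663122 to 97685461, had its main DMSO peak at 4.82-fold and a width of 11.7 kb. It began 5.37 kb before the gene interval, over the noncoding gene Gm11613, and it covered 6.36 kb of Mllt6. A further 3 DMSO peaks of 0.375 to 0.843 kb lay downstream at 2.66-fold to 2.88-fold. Its 1 EPZ peak, from 97663810 to 97665564, was 1.76 kb wide at 4.35-fold and began 398 bases after the listed start. EPZ peaks covered 21.8% of the DMSO bases in Mllt6.

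Mllt10, on the plus strand of chromosome 2 from 18055160 to 18212390, held 9 DMSO peaks over 41.4 kb and no EPZ peak. Its highest DMSO peak, from 18063168 to 18073985, was 10.8 kb wide at 3.56-fold. That peak spanned the internal start site at 18064585, the CpG-rich one shown above, and no DMSO peak lay in the first 500 bases after either of the listed starts at 18055237 and 18055728. The other 8 peaks ran on to 96.4 kb from the 5′ end, the widest of them 12.0 kb at 3.22-fold. Of the 234 genes with at least as many DMSO peak bases as Mllt10, 222 had an EPZ peak (94.9%), and Mllt10 was the 1 whose highest DMSO fold enrichment was lowest. The nearest EPZ peak on its chromosome was 783.4 kb away, in Pip4k2a.

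Neither of the YEATS family genes had an EPZ peak. Mllt1, on the minus strand of chromosome 17 from 56892608 to 56935509, had its main DMSO peak at 3.76-fold, 7.38 kb wide, which began 248 bases after its listed start. Another 4 peaks of 0.426 to 1.49 kb followed through the gene, at 2.82-fold to 3.27-fold. Both genes next to Mllt1, Acsbg3 and Acer1, had no DMSO peak. In Mllt3, on the minus strand of chromosome 4 from 87769925 to 88033407, 8 short DMSO peaks covered 7.96 kb, or 3.02% of the gene. The one at the 5′ end was 1.21 kb at 3.04-fold and began 351 bases after the listed start, and the highest, 2.01 kb at 3.15-fold, lay 49.3 kb in, where the noncoding gene Gm34232 also lies. No peak lay in the first 500 bases after the other listed start of Mllt3, at 87806323, whose window held 4 CpG.

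The AFF scaffold genes ranged from a broad domain to a single short peak, all without an EPZ peak. Aff1, on the plus strand of chromosome 5 from 103692362 to 103855322, had 7 DMSO peaks over 22.5 kb. The highest, 11.0 kb at 3.57-fold, began 61 bases after the second of its listed internal start sites, at 103754573 (the first, at 103754162, is the one shown above), and 5 of the others followed it up to 114.2 kb from the 5′ end of the interval. The remaining peak, 2.37 kb at 3.20-fold, lay at the far 5′ end, from 103692536 to 103694907. Aff4, on the plus strand of chromosome 11 from 53350640 to 53421830, had 1 unbroken peak of 13.4 kb at 3.45-fold that began 496 bases after its listed start. Aff3, on the minus strand of chromosome 1 from 38175393 to 38630178, had 1 peak of 0.325 kb at 2.65-fold, in the lowest part of the DMSO list (rank 11926 of 12578), which began 406 bases after its listed start. The Aff3 call was lost when at least 500 bases of peak, or a fold enrichment of at least 3, was required.

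Of the ELL genes, Ell was widely marked and Ell2 had no peak. Ell, on the plus strand of chromosome 8 from 70539675 to 70592858, had DMSO peaks over 61.0% of its interval, the highest share among the 10 genes. Its main peak was 27.5 kb wide at 5.87-fold, began 9 bases after the start site and stood in the top 13.8% of the DMSO list. Under EPZ-5676 a 6.30 kb peak of 4.09-fold began 242 bases after the start, followed by a 0.389 kb peak of 2.85-fold, and together they covered 20.6% of the DMSO bases. Both lay inside the main DMSO peak. The genes on either side, Fkbp8 and Isyna1, had DMSO peaks of 3.95-fold and 2.77-fold and no EPZ peak. The higher EPZ peak of Ell had a deposited −log10 q of 4.55, and the Ell call under EPZ-5676 was lost at a minimum of 5.

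Ell2, on the plus strand of chromosome 13 from 75707484 to 75772361, had no peak in any list. The nearest DMSO peak lay 67.4 kb away, at Glrx, a glutaredoxin gene with a DMSO peak of 7.44-fold and an EPZ peak of 6.94-fold within the EPZ list. The 14 listed start sites of the 10 genes fell into 10 with a DMSO peak in the first 500 bases, with 22 to 54 CpG in the window, and 4 without, with 4 to 23. The 23 belonged to Ell2 and the other 3 sites had at most 7. All 9 marked members had such a start site peak, against 82.8% of the 6149 DMSO-marked genes with a listed start.

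The members with an EPZ peak were those of highest DMSO fold enrichment, and over all marked genes the share with an EPZ peak rose with that value. In that order Dot1l had 7.89 (5.09 for its own peak), Ell 5.87, Mllt6 4.82, Mllt1 3.76, Aff1 3.57, Mllt10 3.56, Aff4 3.45, Mllt3 3.15 and Aff3 2.65, and the first 3 were those with an EPZ peak. Neighbours in the order cannot be told apart beyond their spread, because no spread was measured. Among all DMSO-marked genes in the same decile of fold enrichment, an EPZ peak was found in 94.5% for Dot1l (78.7% in the decile of its own peak), 87.4% for Ell, 58.3% for Mllt6 and 11.6% for Mllt1. The share was 4.5% in the decile of Aff1, Mllt10 and Aff4, 0.661% in that of Mllt3 and 0.264% in that of Aff3. By DMSO peak bases the order was different. The deciles of Mllt10 and Aff1 held 89.8% of genes with an EPZ peak, that of Aff4 77.1%, that of Mllt1 72% and that of Mllt3 62.2%, yet these 5 genes had none. The members with an EPZ peak shared those deciles, Ell with Mllt10 and Aff1, Dot1l with Mllt1 and Mllt6 with Mllt3. The decile of Aff3 by bases held 3.7%.

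**Figure D3:**
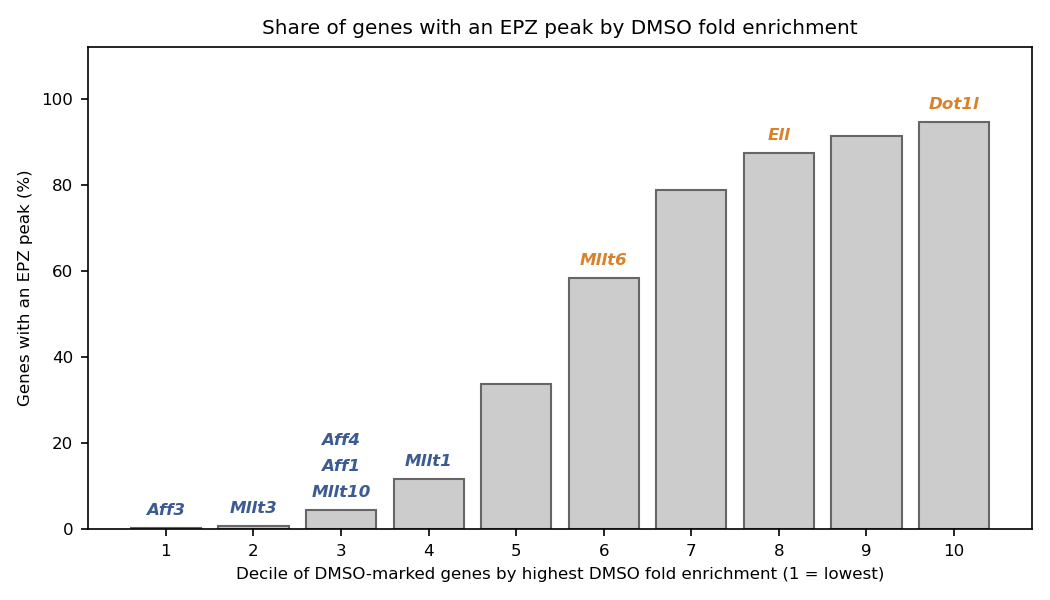
Percent of DMSO-marked protein-coding genes with an EPZ peak in each decile of highest DMSO fold enrichment (bars, 1 is lowest), with the member genes written over their decile, orange with and blue without an EPZ peak. Dot1l stands in the highest decile through the peak it shares with Plekhj1 and Sf3a2, and its own peak would place it in decile 7.

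**Figure D4:**
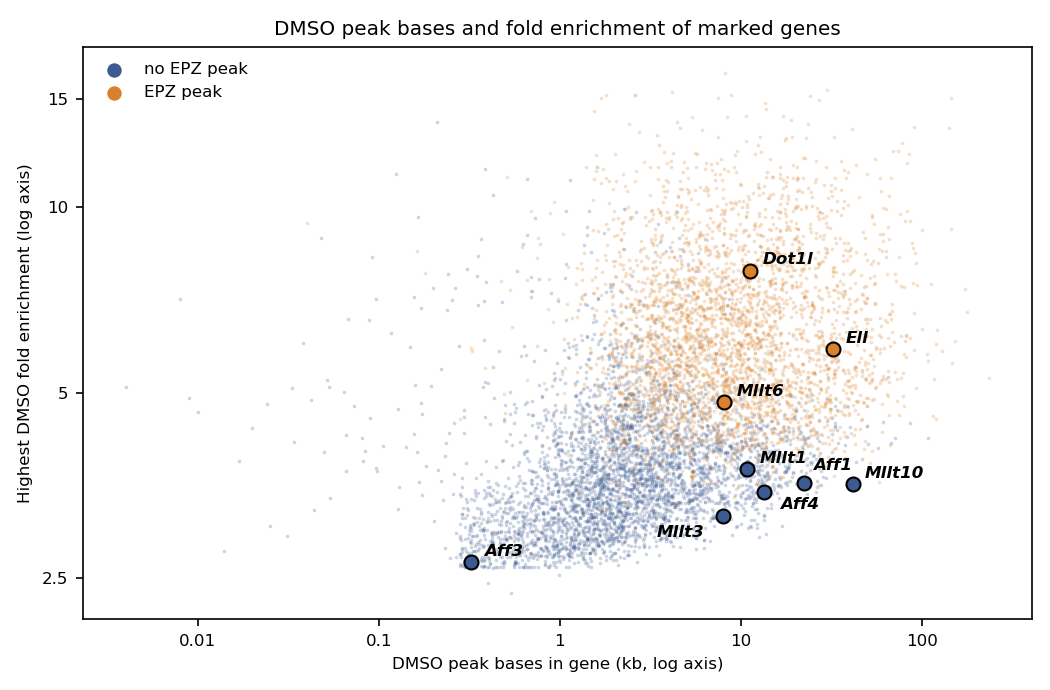
Highest DMSO fold enrichment against DMSO peak bases in the gene (kb) for all 7563 DMSO-marked protein-coding genes, both axes logarithmic, orange with and blue without an EPZ peak, and the 9 marked members as large points. Mllt10, Aff1 and Aff4 lie at the lower right, with many peak bases at 3.45-fold to 3.57-fold.

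In the 3 genes that kept a peak, what was left lay at the 5′ end, as in most genes. In the member genes 100% of EPZ peak bases lay within the part of the interval nearest the 5′ end when it was cut into 3 equal parts, and the median over the 2831 DMSO-marked genes with an EPZ peak and a listed strand was also 100% (lower quartile 66.3). EPZ peaks covered 26.2% of the DMSO bases in Dot1l, 21.8% in Mllt6 and 20.6% in Ell, against a median of 34.3% (interquartile range 18.4 to 55.4) over the 3486 genes with both. The Dot1l share rests mostly on its weaker EPZ peak. With a −log10 q or a fold enrichment of at least 3, its EPZ bases fell from 2950 to 992, of 11242 DMSO bases. At those settings the EPZ bases of Mllt6 stayed at 1755, and those of Ell were 6298 of 6687. All 5 EPZ peaks lay inside a DMSO peak. None of the 9 marked members kept 50% of its DMSO bases under EPZ peaks, as 14.4% of all DMSO-marked genes did. With 9 genes no direction can be read from that count. A gene without an EPZ peak is one where none was called, and the depth and background of the lists are unknown.

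The nearest non-overlapping protein-coding genes on either side of each member numbered 20, at up to 572.6 kb (Pcsk1, from Ell2). Of them 10 had a DMSO peak, against 34.6% of all genes. An EPZ peak was found in 3 of those 10 and an SGC peak in 0, against 46.1% and 0.41% of all DMSO-marked genes. The 3 were Ap3d1 and Plekhj1 beside Dot1l and Glrx beside Ell2, and Plekhj1 shares its DMSO peak with Dot1l. With so few genes no direction can be read from these counts. Leap2, 0.35 kb from Aff4, and Klhl8, 6.73 kb from Aff1, had no DMSO peak, while Rev1, 45.5 kb from Aff3, had 16.9 kb of DMSO peaks at up to 3.04-fold and no EPZ peak.

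The inhibitors were labelled with the same dose and day. Dot1l, Mllt6 and Ell had EPZ peaks of 2.95 kb, 1.76 kb and 6.69 kb in all and none in the SGC list. On the chromosomes of Dot1l, Ell and Ell2 the SGC list held no peak at all. The whole SGC list had 55 peaks, against 4443 in EPZ and 12578 in DMSO, and whether the members differ between inhibitors could not be tested with 1 list each.

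Genes that work with these complexes were also marked under vehicle, in 36 of 38 cases over 7 lists, against 34.6% of all genes. Of those 36, 17 had an EPZ peak and 0 an SGC peak, near the 46.1% and 0.41% of all DMSO-marked genes. The highest DMSO fold enrichment of a marked gene had a median of 4.41, against 4.47 for all marked genes. The 2 without a DMSO peak were Ell3 and Aff2, paralogs of the members.

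P-TEFb and its regulators on the 7SK RNA had DMSO peaks in 6 of 6 genes and EPZ peaks in 4. The kinase gene Cdk9 had the highest DMSO value of that list at 7.47-fold, the cyclin genes Ccnt1 and Ccnt2 had 5.92 and 6.24, and EPZ peaks covered 39.4%, 42.4% and 49.7% of their DMSO bases. Hexim1, whose product inhibits P-TEFb, was lowest at 3.48 and had no EPZ peak, like Larp7 at 4.04. Of the ELL-associated factors, Eaf1 had an EPZ peak (5.76 in DMSO) and Eaf2 had none (3.61). Of the PAF1 complex, which travels with elongating polymerase, only Cdc73 had an EPZ peak among 6 marked genes. It had the highest DMSO value, 5.64, and Rtf1, Ctr9, Paf1, Wdr61 and Leo1 followed without an EPZ peak, from 4.64 down to 3.47.

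The pausing and elongation factors NELF, DSIF and SPT6 had EPZ peaks in 5 of 7 marked genes. Supt5 and Supt4a, which encode the subunits of DSIF, had DMSO values of 7.86 and 7.62, and EPZ peaks covered 62.7% and 99.2% of their DMSO bases. Nelfcd, the lowest at 4.19, and Nelfe at 4.38 had none, while Nelfa, between them at 4.26, had an EPZ peak. Ubiquitination of histone H2B stimulates DOT1L, and of 5 marked genes of that pathway Ube2b (6.70 in DMSO) and Wac (4.06) had an EPZ peak, while Rnf40, Ube2a and Rnf20 had none, at 4.44, 4.25 and 3.67. Of 8 marked MLL and menin complex genes, Kmt2a (6.62), Kmt2b and Wdr5 had an EPZ peak. Rbbp5, Psip1, Dpy30, Men1 and Ash2l had none, from 4.05 down to 2.89. Among other YEATS domain genes, Yeats4 (6.13) had an EPZ peak and Yeats2 (4.44) did not.

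The genes most like Dot1l were sought by the percent of the gene interval under DMSO, EPZ and SGC peaks, as the Euclidean distance over these 3 values among 3058 marked genes of 0.5 to 2 times its length. Dot1l had 27.9% under DMSO, 7.31% under EPZ and 0% under SGC peaks. Nearest was Ccnf, a cyclin gene, with 27.3% and 7.21%, at a distance of 0.577 percentage points. It was followed by Dcun1d1 at 0.691, Got2 at 0.902, Spdl1 at 0.952 and Sec62 at 1.05, all with 0% under SGC peaks.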

How the data were processed

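H3K79me2 ChIP-seq of CD8 T cells was deposited as 1 MACS2 broad peak list per treatment. Per the submitters' processing notes, which state no roles, the builds were mm10 (GRCm38) and sacCer3 and the tools MACS2 2.2.7.1, BWA 0.7.17-r1188 and Picard. The sources used here do not give the calling thresholds or how replicates, inputs and spike-in entered the lists, and each list was taken as pooled. The fold enrichment is a ratio deposited by the authors, and so are the −log10 q values deposited by the authors, both averages over a peak. The score deposited by the authors was not used. Depth per library is unknown, so no interval is given.

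Peaks were joined to gene intervals of RefSeq on GRCm38 by at least 1 base with Python 3.11.15, pandas 2.3.3 and numpy 2.4.6, and plotted with matplotlib 3.10.9. The overlap code was tested on simulated data. Strand and start sites came from the RefSeq promoter table, which matched all 10 genes, and exons were not used here. The members and the gene lists were chosen with earlier results of these data known. Genes were named as follows: all members, genes sharing a peak with one, the next protein-coding genes on each side where described, in each of the 7 lists the highest, the lowest and those lacking a DMSO or EPZ peak, and the 5 most like Dot1l. The Ccnt1, Ccnt2, Supt4a, Nelfa, Kmt2b, Wdr5 and Eaf1 values were added after values were seen. So were the comparison of wide genes, the CpG counts and the first 500 bases after start sites. The alternatives were −log10 q of at least 5 or 3, a fold enrichment of at least 3, at least 500 bases in the gene, intervals widened by 5 kb, each peak given to 1 gene, overlap of at least 50% or 10%, and joining of peaks within 1 kb. A further marker of another cell type is not reported here.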

Additional observations from a re-analysis of the deposited data

How the results depend on the processing

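No paired analysis was possible because each treatment has 1 pooled list, and for the same reason no replicate could be left out. The count of members marked in DMSO fell from 9 to 3 (Dot1l, Mllt6 and Ell) with a −log10 q of at least 5, where 17.3% of all genes were marked. It fell to 4, with Mllt1 added, with a −log10 q of at least 3, where 24.6% were. The median share of their DMSO bases under EPZ peaks went from 0 to 8.82% and 15.9%. Fewer members then enter, and weak EPZ peaks drop out as well. EPZ bases in Dot1l fell from 2950 to 992 at both minimums, and those in Ell from 6687 to 0 at a minimum of 5. Requiring that at least 50% of the DMSO bases lie under EPZ peaks left 0 of 9 members, against 14.4% of all DMSO-marked genes, too few members to read a direction. Members with an EPZ peak were 3 of 9 with intervals widened (49.7% of all DMSO-marked genes), with each peak given to 1 gene (46.6%) and with at least 10% of DMSO bases covered (40.7%). They were 3 of 8 with at least 500 bases (44.7%) and with a fold enrichment of at least 3 (45.9%). At the −log10 q minimum of 3 they were 3 of 4 (44.1%) and at 5 they were 2 of 3, Dot1l and Mllt6 (44.1%), so the members went from below to above all genes as marked members dropped out. No setting gave a member an SGC peak. Joining peaks 1 kb or less apart left 40 DMSO and 5 EPZ peaks. Of 180 values of peak bases per gene, list and setting, 108 were 0 throughout, and of the other 72, 20 moved by over 1.5 times. Depth is unknown, so weak peaks may have gone uncalled in any list.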

Other observations

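Several of these genes ranked high by DMSO peak bases among the 4077 DMSO-marked genes without an EPZ peak. Mllt10 was number 12 of them, Aff1 number 66, Aff4 number 206, Mllt1 number 319 and Mllt3 number 479. Of the 688 genes with at least as many DMSO bases as Aff1, 90.4% had an EPZ peak. Among them 7 had a highest DMSO fold enrichment no greater than that of Aff1, and 1 of these had an EPZ peak. The 7 include Aff1 itself and Mllt10, already known to have none. Of the 1363 genes with at least as many DMSO bases as Aff4, 84.9% had an EPZ peak, and 17 had a fold enrichment no greater than that of Aff4, of which 0 had one. The 17 include Aff4 itself. For Mllt1, 142 of 1731 genes had a fold enrichment no greater, and 12 of these had an EPZ peak. The 142 include Mllt1 itself and Mllt10, Aff1 and Aff4, already known to have none. For Mllt3, itself counted in, 17 of 2324 genes had a fold enrichment no greater, and 0 of these had an EPZ peak. The counts were made after the values were seen.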
